A study of Mus musculus with 30 samples.

Results

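Messenger RNA of 39 hypoxia response and glycolysis genes was measured in 4T1-tdTomato cells, which are mouse mammary carcinoma cells with a red fluorescent reporter, taken from tumours and lungs of 2 host strains. The genes were chosen by symbol as established targets of the hypoxia-inducible factors (HIF) and enzymes of glycolysis, and make up 39 of the 49315 genes in the count table. They form a list of 16 glycolytic enzymes, of which many are HIF targets themselves, and a list of 23 other HIF targets. Each symbol matched 1 row, and all 39 passed the filter on low counts and were among the 17774 genes tested.

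Cells that lack oxygen keep HIF, which is otherwise hydroxylated and degraded, and HIF then raises the transcription of genes for glucose uptake, glycolysis, lactate production, blood vessel growth and the removal of mitochondria. Glycolysis splits glucose into pyruvate without oxygen, and many tumour cells run it at a high rate even when oxygen is at hand. In solid tumours the cells farthest from vessels are known to carry these transcripts at the highest level, and several of the genes, such as Car9, are used as hypoxia markers in tissue sections.

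The study followed 4T1-tdTomato cells in female NSG mice, which lack T, B and NK cells, and in female BALB/c mice, the immunocompetent strain from which 4T1 was derived. There were 6 groups of 5 libraries. NSG tumours were taken at day 10 and BALB/c tumours at day 21 or 22, both after 200000 cells had been placed in the mammary fat pad. NSG DTC and BALB/c DTC were cells from the lung at day 7, an abbreviation that the labels do not spell out, NSG macro-mets came from the lung at day 19 or 20, and BALB/c macro-mets from the lung at day 21 or 23, all after tail vein injection of 500000 cells. All libraries carry the tdTomato reporter, and all were made from cells sorted as single, DAPI-, CD45- and tdTomato+. Tumours differ from both lung stages in organ, route of injection and cell number at once, and neither tumours nor macro-mets were collected on the same day in both strains, so these cannot be told apart from stage or host. The labels do not say that the libraries of a group came from separate animals, in which case p-values measure only the spread between these libraries.

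Total counts were between 29832098 and 65621525 per library. The 9 markers of the 4T1 line as an epithelial tumour, keratins and junction proteins among them, summed to between 4752 and 11156 CPM (counts scaled to library size) in every library, with none at 0. Their group medians were 10029, 7438 and 5991 CPM in the tumours, DTC and macro-mets of NSG mice, and 7605, 9938 and 5972 CPM in those of BALB/c mice. Markers of other cells were also present. The 12 lung epithelium markers summed to 20.5 to 53.8 CPM in NSG DTC and 86.4 to 3430 CPM in BALB/c DTC, where replicates 1 and 2 stood far above the others. The 12 endothelial markers summed to 70.1 to 96.9 CPM in NSG DTC, 36.5 to 525 CPM in BALB/c DTC and at most 34.6 CPM in tumours. The 10 skeletal muscle markers were high in NSG macro-met replicate 3, at 330 CPM, and BALB/c tumour replicate 4, at 829 CPM, and NSG tumour replicates 3 and 2 followed at 214 and 160 CPM. In bulk RNA of this kind, fewer cells of a type and less RNA per cell cannot be told apart.

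HIF binds DNA at the core letters ACGTG or GCGTG, and the letters before the transcription start are printed for 9 of the genes, chosen with their values known: 4 with some of the largest changes (Bnip3, Ankrd37, P4ha2 and Car9), 2 abundant enzymes (Ldha and Pgk1), and 3 that either differed between hosts or hold no such letters (Kdm3a, Vegfa and Eno2). Each line holds 160 bases that end at the base before the first listed RefSeq start (GRCm38.p6), written 5′ to 3′ on the strand of the gene, with ACGTG and GCGTG on either strand in capitals.
Bnip3, chr7:138909507-138909666, minus strand: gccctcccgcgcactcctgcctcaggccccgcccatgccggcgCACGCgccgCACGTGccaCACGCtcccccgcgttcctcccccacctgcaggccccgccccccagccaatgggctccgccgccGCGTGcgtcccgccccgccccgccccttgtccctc
Ankrd37, chr8:45999851-46000010, minus strand: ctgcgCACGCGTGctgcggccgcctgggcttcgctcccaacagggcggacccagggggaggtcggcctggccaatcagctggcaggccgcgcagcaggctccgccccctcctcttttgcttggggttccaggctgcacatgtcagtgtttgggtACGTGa
P4ha2, chr11:54100764-54100923, plus strand: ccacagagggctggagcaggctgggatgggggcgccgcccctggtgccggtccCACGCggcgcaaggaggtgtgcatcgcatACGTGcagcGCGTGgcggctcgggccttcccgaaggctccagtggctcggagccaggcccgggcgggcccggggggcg
Car9, chr4:43506866-43507025, plus strand: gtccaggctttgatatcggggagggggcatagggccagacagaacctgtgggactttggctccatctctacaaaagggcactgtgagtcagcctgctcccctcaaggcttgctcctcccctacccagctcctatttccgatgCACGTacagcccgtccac
Ldha, chr7:46845644-46845803, plus strand: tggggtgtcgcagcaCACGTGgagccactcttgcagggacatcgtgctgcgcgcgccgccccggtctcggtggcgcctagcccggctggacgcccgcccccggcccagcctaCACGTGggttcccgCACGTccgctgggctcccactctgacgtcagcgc
Pgk1, chrX:106186940-106187099, plus strand: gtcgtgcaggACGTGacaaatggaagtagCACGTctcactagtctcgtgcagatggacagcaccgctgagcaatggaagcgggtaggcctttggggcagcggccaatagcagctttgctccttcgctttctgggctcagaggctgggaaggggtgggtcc
Kdm3a, chr6:71632918-71633077, minus strand: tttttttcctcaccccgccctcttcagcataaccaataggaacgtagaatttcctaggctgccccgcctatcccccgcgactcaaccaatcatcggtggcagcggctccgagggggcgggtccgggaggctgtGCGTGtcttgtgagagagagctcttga
Vegfa, chr17:46032378-46032537, minus strand: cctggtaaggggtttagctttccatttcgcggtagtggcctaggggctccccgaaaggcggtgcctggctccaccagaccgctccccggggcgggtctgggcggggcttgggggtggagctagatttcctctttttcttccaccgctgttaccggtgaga
Eno2, chr6:124769674-124769833, minus strand: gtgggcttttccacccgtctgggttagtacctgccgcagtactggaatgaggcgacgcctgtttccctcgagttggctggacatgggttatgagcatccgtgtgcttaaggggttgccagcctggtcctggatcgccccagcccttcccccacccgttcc

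Bnip3 and Ldha hold the palindrome CACGTG, which reads ACGTG on both strands. In Car9 the match lies 18 bases before the start, and in Ankrd37 the ACGTG match lies 6 bases before it. RefSeq promoter entries, of 250 bases before to 50 after each start, were at hand for 35 of the 39 genes, some with several starts. At least 1 entry held either motif in 13 of 16 enzymes (81.2%) and in 19 of 19 other HIF targets (100.0%), against 64.2% of all genes tested with such an entry. ACGTG was found in 10 of 16 enzymes (62.5%) and 15 of 19 other HIF targets (78.9%), against 27.8% of genes tested. GCGTG was found in 9 of 16 enzymes (56.2%), close to the 52.9% of genes tested, and in 15 of 19 other HIF targets (78.9%). A gene with more entries has more chances of a match. Counted by entry, ACGTG was found in 44.4% for the enzymes and 58.6% for the other HIF targets, against 24.0% for genes tested. For GCGTG these shares were 51.9% and 62.1%, against 47.4%. These matches describe the letters in the window, and the lack of one in Vegfa and Eno2 says only that those 160 bases do not hold it.

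Most of the 39 genes stood at their lowest mean in DTC and at their highest in macro-mets. By group mean, 15 of 16 enzymes were lowest in NSG DTC, and Eno2 was lowest in BALB/c DTC. Of the 23 other HIF targets, 12 were lowest in NSG DTC, while BALB/c DTC were lowest for 8 and BALB/c tumours for 3. The highest mean fell in a macro-met group for 14 enzymes (8 in NSG and 6 in BALB/c). It did so for 18 other HIF targets (5 in NSG and 13 in BALB/c). For the enzymes, the split between hosts depended on NSG macro-met replicate 4, which raised the NSG means. By group median, Gpi1, Pgk1, Pgam1, Eno1, Pkm and Ldha were higher in BALB/c than in NSG macro-mets (Ldha at 1541 against 1458 CPM). Of the enzymes with their highest mean in NSG macro-mets, only Hk1 and Pfkm were higher there by median too. The order of group means was not counted for other genes, so these numbers have no share of all genes beside them.

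When each gene's log2 CPM was set against its own average over all 30 libraries, the mean departure of the 16 enzymes had a median of -0.05 in NSG tumours, -0.69 in NSG DTC and 0.34 in NSG macro-mets. The corresponding medians in BALB/c mice were -0.05 in tumours, -0.32 in DTC and 0.53 in macro-mets. For the 23 other HIF targets the medians were 0.10, -0.87 and 0.44 in NSG tumours, DTC and macro-mets, and 0.30, -0.81 and 0.77 in the tumours, DTC and macro-mets of BALB/c mice. In the other HIF targets the DTC libraries of both hosts lay below every tumour and macro-met library. NSG macro-met replicate 4 stood apart at 1.03 for the enzymes and 1.15 for the other HIF targets, the highest of all libraries in both lists, and BALB/c tumour replicates 1 and 3 stood above the other 3 of their group.

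**Figure D1:**
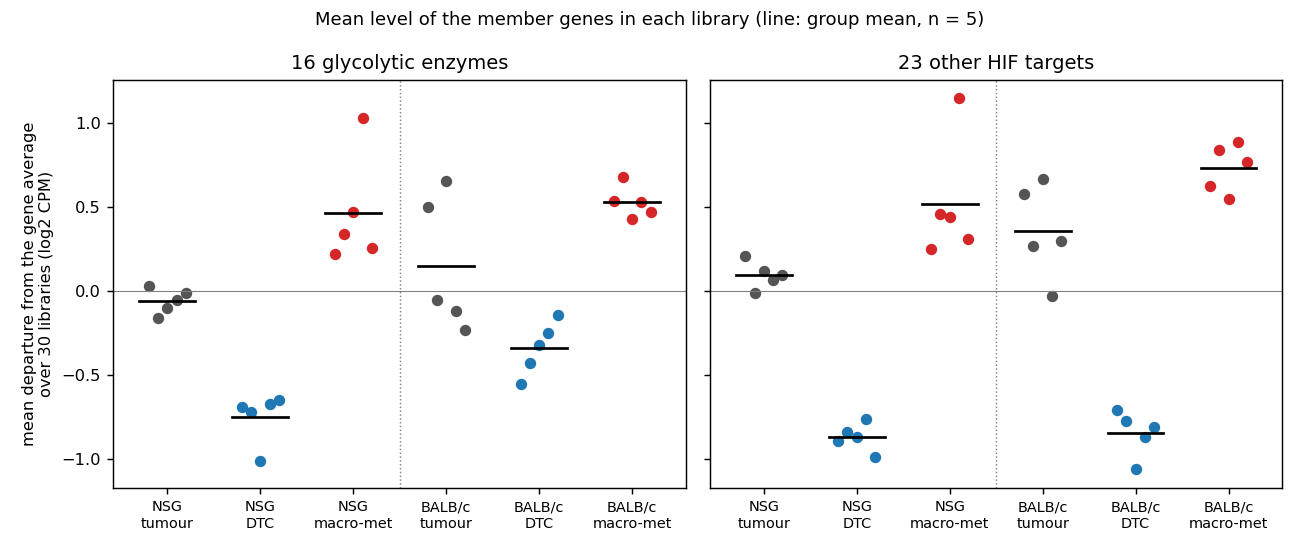
Mean departure of each library from the average of the 30 libraries, in log2 CPM over the 16 glycolytic enzymes (left) and the 23 other HIF targets (right), with NSG groups left of BALB/c groups. Points are libraries and lines are group means of 5; the DTC libraries lie between -1.06 and -0.71 for the other HIF targets, below all others, and between -1.01 and -0.14 for the enzymes, where BALB/c DTC overlap the tumours.

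In NSG DTC against NSG tumours, 13 of 16 enzymes fell and none rose, at an adjusted p under 0.05 over all 17774 genes (edgeR's quasi-likelihood test), where 9.55% of all genes tested fell. Of the 23 other HIF targets, 14 fell and none rose. The median log2 fold change was -0.70 for the enzymes and -0.74 for the other HIF targets, beside 0.057 for all genes tested. All 5 NSG DTC libraries lay below all 5 NSG tumour libraries for 14 enzymes and for 14 other HIF targets, as they did for 8.45% of all genes tested. The 3 enzymes that did not pass were Hk1, Pfkp and Pkm, at log2 fold changes of -0.05 ± 0.15, -0.15 ± 0.16 and -0.36 ± 0.15 (± SE).

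In BALB/c DTC against BALB/c tumours, 8 of 16 enzymes fell and none rose, where 21.0% of all genes tested fell. Of the other HIF targets, 15 of 23 fell, and Vegfa and Pfkfb4 rose, where 20.4% of all genes tested rose. The medians were -0.38 for the enzymes and -1.25 for the other HIF targets, beside -0.091 for all genes. All DTC libraries lay below all tumour libraries for 4 enzymes and 13 other HIF targets, as for 9.19% of all genes tested.

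The 8 enzymes that fell in BALB/c DTC (Gpi1, Pfkl, Aldoa, Aldoc, Tpi1, Pgk1, Eno1 and Eno2) also fell in NSG DTC, which makes 8 of 13 in NSG and 8 of 8 in BALB/c mice. The BALB/c call of Eno1 is lost when any of 4 of 10 libraries is left out. Among the other HIF targets 12 fell in both hosts, of 14 in NSG and 15 in BALB/c mice. These 12 were Slc2a1, Car9, Pfkfb3, Pdk1, Bnip3, Ak4, Egln3, Adm, P4ha1, P4ha2, Mxi1 and Ankrd37. How many of all genes tested fell in both hosts was not counted.

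From DTC to macro-mets in NSG mice all 16 enzymes rose, where 21.3% of all genes tested rose, with a median of 1.18 beside 0.025 for all genes. Of the other HIF targets 18 rose, with a median over the 23 of 1.33, and Kdm3a fell, where 22.4% of all genes fell and 43.7% were called in either direction. In BALB/c macro-mets against BALB/c DTC 13 enzymes and 18 other HIF targets rose and none fell, where 16.6% of all genes rose and 30.8% were called in either direction. The BALB/c medians were 0.66 for the enzymes and 1.32 for the other HIF targets, beside -0.037 for all genes. These comparisons use the same DTC libraries as those with tumours, so the changes are not independent of those. The rise was called in both hosts for 13 enzymes, of 16 in NSG and 13 in BALB/c mice, and for 16 other HIF targets, of 18 in each. How many of all genes tested rose in both hosts was not counted.

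The 9 fibroblast markers were also lowest in DTC. Their summed CPM was 254 to 361 in the tumours, 152 to 204 in the DTC and 473 to 586 in the macro-mets of NSG mice, and 269 to 853, 91.3 to 214 and 363 to 574 in the same stages of BALB/c mice. Of the 9, only Tcf21 was at 0 in the tumours, and none was at 0 in the lung groups. Their part in the result was not tested. Endothelial markers had their highest group median in DTC of either host. Lung epithelium markers did so in BALB/c mice alone, since their NSG medians were 36.0 CPM in macro-mets and 31.6 CPM in DTC. The 12 leukocyte markers, which matched 13 rows, summed to 25.8 to 71.0 CPM in NSG DTC against 10.9 to 23.6 CPM in NSG tumours, and to 26.7 to 677 CPM in BALB/c DTC against 13.0 to 95.4 CPM in BALB/c tumours; Nkg7 and Itgam were at 0 in NSG DTC. The 8 red cell markers summed to 17.4 to 65.6 CPM in NSG DTC against 1.94 to 6.1 CPM in NSG tumours, and to 4.12 to 11.1 CPM in BALB/c DTC against 0.561 to 3.67 CPM in BALB/c tumours; Epb42 was at 0 in the tumours of either host. The part of leukocyte and red cell markers in the falls was not tested.

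A fit with the lung epithelium and endothelial markers as a covariate, which by its construction differs between tumours and lung groups, called 2 enzymes and 8 other HIF targets lower in NSG DTC over tumours. The NSG medians in it were -0.46 for the enzymes and -0.62 for the other HIF targets. In BALB/c DTC over tumours it called 2 enzymes lower and 1 higher, and 13 other HIF targets lower and 2 higher. The BALB/c medians in it were -0.08 for the enzymes and -1.58 for the other HIF targets. The share of all genes called in this fit is not given here. Its counts therefore do not say whether the members lost calls more often than other genes. Without BALB/c DTC replicates 1 and 2, the falls in BALB/c DTC numbered 6 enzymes and 14 other HIF targets.

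**Figure D2:**
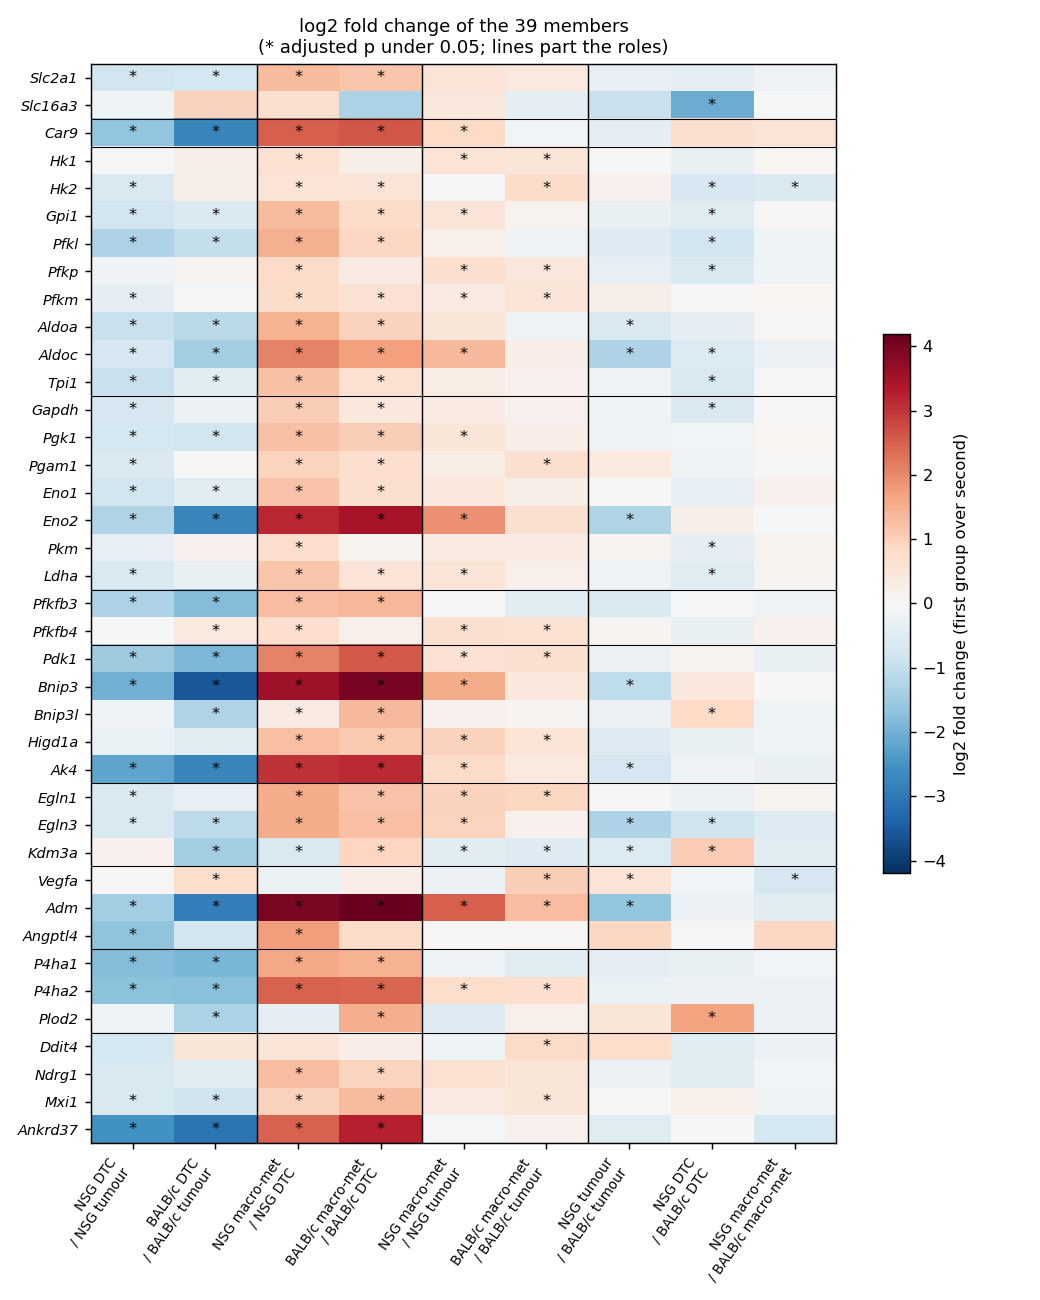
Log2 fold changes of the 39 genes, 16 glycolytic enzymes and 23 other HIF targets, in the stage comparisons of each host and between hosts; asterisks mark an adjusted p under 0.05. Values run from -3.56 (Bnip3, BALB/c DTC over tumour) to 4.16 (Adm, BALB/c macro-met over DTC), and the DTC over tumour columns are mostly negative while the macro-met over DTC columns are mostly positive.

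Glucose uptake and acid handling. Slc2a1 encodes GLUT1, the main glucose transporter of many tumour cells. Slc2a1 measured 190, 133, 149, 156 and 171 CPM in the NSG tumours, 85.0, 90.1, 103, 98.3 and 93.2 CPM in NSG DTC and 166, 209, 230, 402 and 175 CPM in NSG macro-mets. Slc2a1 in BALB/c mice measured 244, 197, 341, 115 and 129 CPM in tumours, 91.1, 110, 106, 132 and 172 CPM in DTC and 297, 358, 220, 241 and 246 CPM in macro-mets. The NSG DTC libraries lay below all other NSG libraries, whereas BALB/c DTC overlapped BALB/c tumours. Slc2a1 fell in DTC by a similar estimate in both hosts, with log2 fold changes over tumours of -0.77 ± 0.24, adjusted p = 0.018 in NSG and -0.75 ± 0.24, adjusted p = 0.0135 in BALB/c mice, and the host difference was -0.02 ± 0.34, adjusted p = 0.972. The NSG call is lost on either TPM scale (-0.54, adjusted p = 0.0627, with a pseudocount of 1). The BALB/c call is lost without BALB/c tumour replicate 3, without BALB/c DTC replicates 1 and 2 (-0.59, adjusted p = 0.1) and in a fit of the compared libraries alone. It rose in macro-mets over DTC in NSG (1.33 ± 0.24, adjusted p = 4.79e-05) and BALB/c mice (1.16 ± 0.24, adjusted p = 0.000501).

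Car9, a carbonic anhydrase at the cell surface that acidifies the outside of the cell, showed a wider range. Car9 measured 87.1, 84.0, 87.1, 92.1 and 94.2 CPM in NSG tumours, 30.5, 28.2, 27.3, 29.2 and 24.5 CPM in NSG DTC and 103, 124, 184, 247 and 146 CPM in NSG macro-mets. Car9 in BALB/c mice stood at 160, 70.4, 240, 77.9 and 42.0 CPM in tumours, 13.4, 18.1, 15.3, 13.3 and 28.0 CPM in DTC and 90.0, 130, 115, 118 and 85.9 CPM in macro-mets. The DTC libraries of each host lay below all of its tumours and macro-mets. BALB/c tumours spread widely, with replicates 1 and 3 above the other 3. Car9 fell in DTC over tumours in NSG (-1.67 ± 0.31, adjusted p = 0.000263) and BALB/c mice (-2.74 ± 0.32, adjusted p = 1.62e-07) and rose in macro-mets over DTC in NSG (2.52 ± 0.32, adjusted p = 3.01e-07) and BALB/c mice (2.61 ± 0.32, adjusted p = 5.07e-07).

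Slc16a3, the lactate exporter MCT4 and a usual HIF target, was close to absent, at means between 0.285 and 1.07 TPM (transcripts scaled by gene length and depth). Slc16a3 measured 0.339, 0.511, 0.829, 0.649 and 0.17 CPM in NSG DTC and 5.66, 2.97, 0.487, 0.751 and 0.911 CPM in BALB/c DTC, where replicates 1 and 2, the libraries rich in lung markers, were highest. The called difference between the hosts in DTC (-2.09 ± 0.73, adjusted p = 0.0216) was -0.53, adjusted p = 0.635, without those libraries. Slc16a1, which encodes the transporter MCT1 and was kept in a separate list of genes of pyruvate entry, averaged between 197 and 301 CPM in the 6 groups.

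Upper glycolysis. The 9 enzymes from hexokinase to triosephosphate isomerase covered a wide span of levels, with NSG tumour means from 25.8 TPM for Pfkp, 32.3 for Aldoc and 70.6 for Hk2 to 600 for Aldoa and 686 for Tpi1. In NSG DTC 7 of the 9 fell and in BALB/c DTC 5 of the 9 fell, relative to tumours of the same host. Of all genes tested 9.55% fell in NSG DTC and 21.0% in BALB/c DTC. Pfkl, the liver-type phosphofructokinase, fell in NSG (-1.28 ± 0.20) and BALB/c DTC (-1.01 ± 0.20), while Pfkp, the platelet type, stood at -0.15 ± 0.16 and 0.14 ± 0.16 and did not pass in either host. In macro-mets over DTC all 9 rose in NSG mice and 7 of 9 rose in BALB/c mice, where Hk1 (0.26 ± 0.15) and Pfkp (0.35 ± 0.16) did not pass. Of all genes tested 21.3% rose there in NSG and 16.6% in BALB/c mice.

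Aldoc, the brain-type aldolase, was the upper enzyme with the smallest adjusted p in both NSG macro-mets over DTC and BALB/c DTC over tumours. Aldoc measured 44.4, 31.2, 39.5, 42.3 and 44.2 CPM in NSG tumours, 30.9, 22.4, 22.6, 20.9 and 25.7 CPM in NSG DTC and 84.0, 84.4, 104, 146 and 96.7 CPM in NSG macro-mets. Aldoc in BALB/c mice stood at 111, 138, 100, 46.7 and 106 CPM in tumours, 25.5, 40.5, 37.1, 41.4 and 39 CPM in DTC and 127, 130, 106, 118 and 125 CPM in macro-mets. In each host no DTC library reached a tumour or macro-met library, and NSG tumours lay below BALB/c tumours without overlap. The rise in macro-mets over DTC was 2.07 ± 0.19, adjusted p = 1.75e-09 in NSG and 1.72 ± 0.19, adjusted p = 5.11e-08 in BALB/c mice. The fall in DTC over tumours was -0.72 ± 0.19, adjusted p = 0.00514 in NSG and -1.45 ± 0.19, adjusted p = 5.63e-07 in BALB/c mice, a host difference of 0.73 ± 0.27, adjusted p = 0.0326, a call lost when any of 7 of 20 libraries was left out.

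Hk2, the hexokinase that phosphorylates glucose and is the inducible form in many tumours, differed between the hosts. Hk2 measured 144, 135, 139, 184 and 198 CPM in NSG tumours, 108, 134, 79.4, 111 and 84.2 CPM in NSG DTC and 165, 155, 156, 162 and 142 CPM in NSG macro-mets. Hk2 in BALB/c mice stood at 175, 127, 170, 112 and 124 CPM in tumours, 138, 162, 134, 189 and 212 CPM in DTC and 211, 259, 190, 280 and 263 CPM in macro-mets. NSG DTC lay below NSG tumours and below BALB/c DTC without overlap, and NSG macro-mets lay below BALB/c macro-mets without overlap. Hk2 fell in NSG DTC over tumours (-0.63 ± 0.15, adjusted p = 0.00252) and stood at 0.24 ± 0.15, adjusted p = 0.215 in BALB/c mice, and this host difference passed the test (-0.87 ± 0.22, adjusted p = 0.00217). On the log2(TPM + 1) scale the fall in NSG DTC was -0.42, adjusted p = 0.06. Hk2 was also the only enzyme called between the hosts in macro-mets (-0.62 ± 0.15, adjusted p = 0.0171), where 2.64% of all genes tested were called in either direction, and that call is lost without NSG macro-met replicate 5 or either of BALB/c macro-met replicates 4 and 5.

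Lower glycolysis and lactate. These 7 enzymes include the most abundant transcripts of the set, with NSG tumour means of 1874 TPM for Pkm, 1196 for Gapdh, 917 for Ldha, 695 for Pgk1 and 657 for Eno1. Gapdh, Pgk1, Eno1, Ldha, Pkm, Pgam1 and, in upper glycolysis, Tpi1 and Aldoa have near-identical copies or pseudogenes elsewhere in the genome, so their counts are less certain. In NSG DTC 6 of the 7 fell relative to tumours, and in BALB/c DTC 3 fell (Pgk1, Eno1 and Eno2). Of all genes tested 9.55% fell in NSG DTC and 21.0% in BALB/c DTC. The call of Eno1 in BALB/c DTC is lost when any of 4 of 10 libraries is left out, at -0.46 to -0.27. In macro-mets over DTC all 7 rose in NSG mice and 6 rose in BALB/c mice, all but Pkm (0.14 ± 0.15). Of all genes tested 21.3% rose there in NSG and 16.6% in BALB/c mice.

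Ldha, lactate dehydrogenase A, which turns pyruvate into lactate, averaged 743 ± 59.5 CPM in NSG DTC and 1160 ± 81.1 CPM in NSG tumours (SD, n = 5), a log2 fold change of -0.64 ± 0.17, adjusted p = 0.00526. In BALB/c mice the averages were 1054 ± 104 CPM in DTC and 1321 ± 480 CPM in tumours (-0.32 ± 0.17, adjusted p = 0.121). Ldha rose in macro-mets over DTC in NSG (1.17 ± 0.17) and BALB/c mice (0.55 ± 0.17), and this rise was larger in NSG mice, by 0.62 ± 0.24, adjusted p = 0.0499, a call lost when any of 17 of 20 libraries was left out. Pgk1, phosphoglycerate kinase, fell in DTC by nearly the same estimate in NSG (-0.74 ± 0.17) and BALB/c mice (-0.77 ± 0.17).

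Eno2, the neuronal enolase isoform, had the largest ratio of highest to lowest group mean of the enzymes. It averaged 14.5 ± 8.1 TPM in NSG macro-mets against 1.83 ± 0.432 TPM in NSG DTC, and 15.3 ± 2.89 TPM in BALB/c macro-mets against 1.29 ± 0.534 TPM in BALB/c DTC (SD, n = 5). Eno2 measured 9.89, 4.02, 6.24, 5.61 and 8.02 CPM in NSG tumours, 2.98, 3.43, 2.0, 3.08 and 2.56 CPM in NSG DTC and 13.8, 20.5, 25.4, 52.3 and 15.1 CPM in NSG macro-mets. Eno2 in BALB/c mice stood at 23.6, 12.8, 25.4, 7.28 and 12.6 CPM in tumours, 2.58, 0.899, 2.0, 2.87 and 3.52 CPM in DTC and 30.3, 29.1, 18.3, 28.0 and 24.3 CPM in macro-mets. DTC libraries lay below all tumours and macro-mets of the same host, and NSG macro-mets lay above all NSG tumours. Eno2 fell in DTC over tumours in NSG (-1.26 ± 0.36, adjusted p = 0.00894) and BALB/c mice (-2.77 ± 0.37, adjusted p = 1.03e-06) and rose in macro-mets over DTC in NSG (3.17 ± 0.37, adjusted p = 8.21e-08) and BALB/c mice (3.45 ± 0.38, adjusted p = 6.31e-08). Its abundant relative Eno1 moved far less, at -0.76 ± 0.17 and -0.44 ± 0.17 in DTC over tumours of NSG and BALB/c mice.

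The PFK-2 enzymes. Pfkfb3 and Pfkfb4 make and degrade a fructose bisphosphate that activates phosphofructokinase, and their mean levels were low, at 10.2 and 4.11 TPM in NSG tumours. Pfkfb3 measured 28.9, 16.7, 28.4, 38.1 and 34.9 CPM in NSG tumours, 11.6, 11.8, 12.0, 14.7 and 9.23 CPM in NSG DTC and 23.9, 25.2, 30.1, 39.5 and 29.1 CPM in NSG macro-mets. Pfkfb3 in BALB/c mice stood at 41.3, 34.7, 32.5, 36.3 and 77.5 CPM in tumours, 17.5, 13.1, 7.27, 9.82 and 14.6 CPM in DTC and 15.7, 32.0, 30.1, 45.3 and 40.2 CPM in macro-mets. DTC lay below tumours in both hosts without overlap, and BALB/c macro-met replicate 1 was within the range of BALB/c DTC. Pfkfb3 fell in DTC over tumours in NSG (-1.31 ± 0.27, adjusted p = 0.000577) and BALB/c mice (-1.83 ± 0.27, adjusted p = 3.96e-06), and rose in macro-mets over DTC in both (1.31 ± 0.27 and 1.39 ± 0.27).

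Pfkfb4 had another pattern. In NSG mice Pfkfb4 measured 7.83, 8.08, 6.18, 7.66 and 8.03 CPM in DTC and 8.5, 6.98, 7.38, 7.77 and 7.63 CPM in tumours (-0.02 ± 0.16, adjusted p = 0.949). Pfkfb4 in BALB/c mice measured 9.38, 8.27, 7.33, 11.2 and 10.3 CPM in DTC and 7.58, 4.83, 5.37, 9.88 and 7.2 CPM in tumours, with overlap, and the difference passed the test (0.41 ± 0.16, adjusted p = 0.0344), a call lost when any of 5 of 10 libraries was left out. The host difference was -0.43 ± 0.22, adjusted p = 0.137. Pfkfb4 was above its NSG tumours and DTC in NSG macro-mets, at 13.2, 11.8, 11.4, 14.2 and 10.8 CPM, and reached 11.3, 10.5, 10.3, 10.6 and 11.5 CPM in BALB/c macro-mets.

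Mitochondria and mitophagy. Bnip3 and Bnip3l are receptors for the removal of mitochondria, and Pdk1 is a mitochondrial kinase that inhibits pyruvate dehydrogenase. Ak4 is a mitochondrial adenylate kinase, and Higd1a is a protein of the inner membrane. Ak4 measured 9.31, 7.21, 10.7, 8.51 and 8.08 CPM in NSG tumours, 1.5, 2.13, 1.43, 2.31 and 2.07 CPM in NSG DTC and 11.8, 15.6, 16.4, 22.5 and 10.7 CPM in NSG macro-mets. Ak4 in BALB/c mice stood at 22.2, 11.4, 19.9, 7.39 and 10.5 CPM in tumours, 1.89, 2.4, 1.83, 2.53 and 2.05 CPM in DTC and 15.8, 18.7, 12.1, 26.7 and 21.5 CPM in macro-mets. The 2 DTC groups lay in the same range and below every other library. Ak4 fell in DTC over tumours in NSG (-2.21 ± 0.26, adjusted p = 6.06e-07) and BALB/c mice (-2.74 ± 0.26, adjusted p = 2.4e-09) and rose in macro-mets over DTC in NSG (3.03 ± 0.27, adjusted p = 5.91e-10) and BALB/c mice (3.15 ± 0.27, adjusted p = 2.66e-10).

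Bnip3, singled out after its values were seen, had the largest fall of the 39 genes in BALB/c DTC. Bnip3 measured 33.6, 17.9, 27.5, 20.7 and 27.6 CPM in NSG tumours, 5.37, 5.94, 7.93, 6.5 and 5.56 CPM in NSG DTC and 38.0, 55.5, 66.2, 162 and 50.9 CPM in NSG macro-mets. Bnip3 in BALB/c mice stood at 64.7, 39.4, 86.0, 40.9 and 39.1 CPM in tumours, 7.42, 5.27, 3.15, 3.4 and 3.63 CPM in DTC and 75.4, 87.7, 62.4, 74.4 and 66.5 CPM in macro-mets. DTC libraries of both hosts lay below every tumour and macro-met library, and NSG tumours lay below BALB/c tumours. Bnip3 fell in DTC over tumours in NSG (-2.02 ± 0.31, adjusted p = 2.95e-05) and BALB/c mice (-3.56 ± 0.33, adjusted p = 2.65e-09) and rose in macro-mets over DTC in NSG (3.57 ± 0.33, adjusted p = 2.19e-09) and BALB/c mice (4.00 ± 0.34, adjusted p = 6.02e-10). Pdk1 fell in DTC over tumours (-1.48 ± 0.20 in NSG and -1.90 ± 0.20 in BALB/c mice), and Higd1a did not pass there (-0.28 ± 0.21 and -0.50 ± 0.21), while both rose in macro-mets over DTC in each host.

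**Figure D3:**
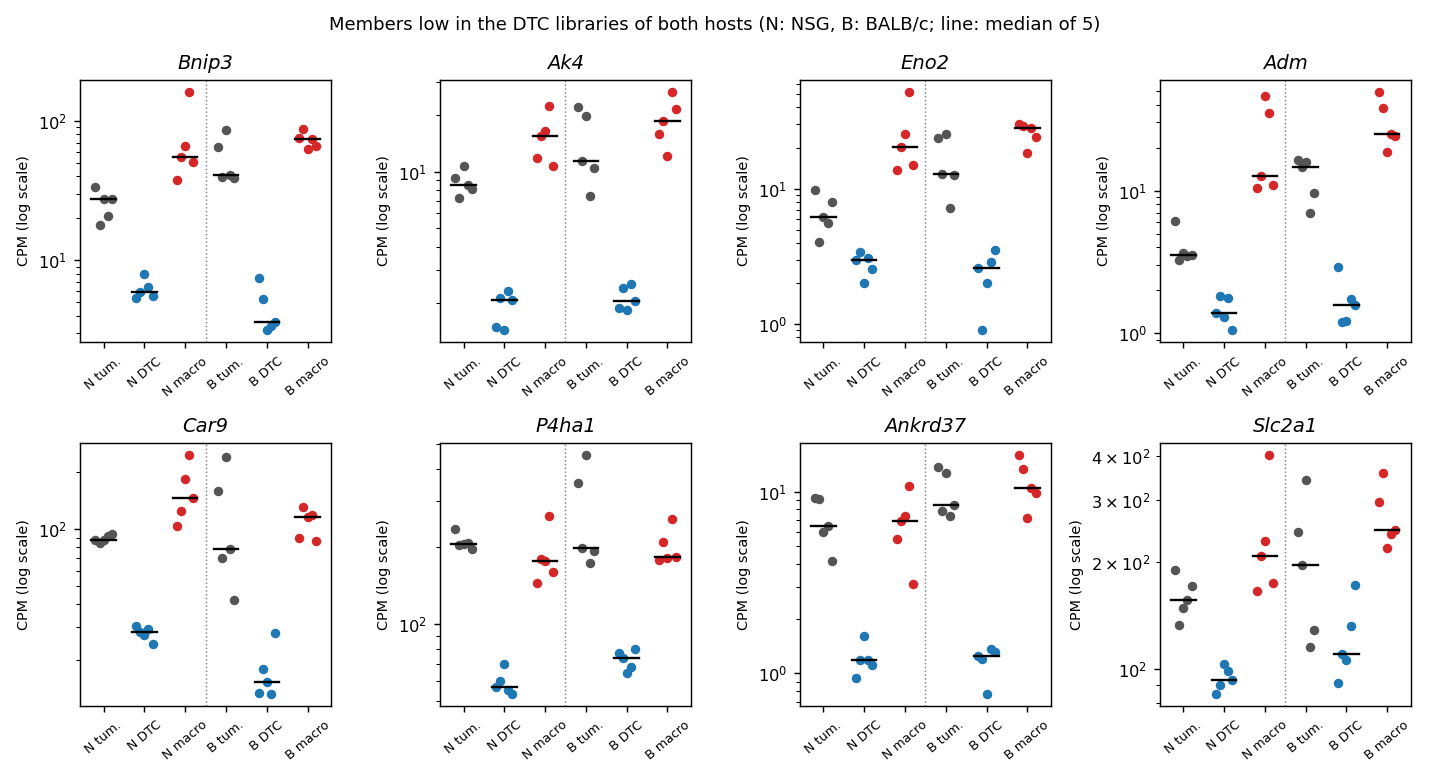
CPM on a log scale of 8 genes that fell in DTC of both hosts, with a panel for each gene and NSG groups (N) left of BALB/c groups (B); points are libraries and lines are medians of 5. In Bnip3 the DTC libraries lie between 3.15 and 7.93 CPM and all others at 17.9 CPM or above.

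Oxygen sensing and chromatin. Egln1 and Egln3 are prolyl hydroxylases that mark HIF for degradation and are themselves induced by HIF. Egln3 measured 137, 106, 114, 119 and 114 CPM in NSG tumours, 83.9, 76.0, 73.9, 72.9 and 72.2 CPM in NSG DTC and 186, 201, 174, 353 and 209 CPM in NSG macro-mets. Egln3 in BALB/c mice stood at 278, 419, 207, 187 and 355 CPM in tumours, 98.7, 136, 155, 152 and 136 CPM in DTC and 346, 356, 283, 322 and 333 CPM in macro-mets. Egln3 was lower in NSG than in BALB/c mice without overlap in tumours (-1.29 ± 0.18, adjusted p = 3.24e-06) and in DTC (-0.84 ± 0.18, adjusted p = 0.000328). It fell in DTC over tumours in NSG (-0.64 ± 0.18, adjusted p = 0.00773; -0.42, adjusted p = 0.0827, as log2(TPM + 1)) and BALB/c mice (-1.09 ± 0.18, adjusted p = 1.49e-05), and rose in macro-mets over DTC in both (1.57 ± 0.18 and 1.27 ± 0.18). Egln1 rose in macro-mets over DTC in NSG (1.56 ± 0.19) and BALB/c mice (1.21 ± 0.18).

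Kdm3a, a demethylase of histone H3 lysine 9, had stage changes that differed between the hosts. Kdm3a measured 56.3, 55.3, 45.6, 48.6 and 37.5 CPM in NSG tumours, 54.7, 52.0, 63.3, 53.7 and 49.1 CPM in NSG DTC and 35.5, 31.3, 32.0, 35.1 and 39.7 CPM in NSG macro-mets. Kdm3a in BALB/c mice stood at 70.4, 72.1, 71.7, 55.5 and 88.0 CPM in tumours, 35.8, 26.7, 25.0, 28.2 and 14.9 CPM in DTC and 45.7, 42.3, 44.0, 60.8 and 51.6 CPM in macro-mets. NSG macro-mets were lowest of the NSG groups, DTC lowest of the BALB/c groups, and the DTC groups did not overlap. In DTC over tumours Kdm3a stood at 0.17 ± 0.16, adjusted p = 0.475 in NSG mice and fell in BALB/c mice (-1.46 ± 0.16, adjusted p = 2.1e-08), a host difference of 1.62 ± 0.22, adjusted p = 3.44e-06. In macro-mets over DTC it fell in NSG mice (-0.65 ± 0.16, adjusted p = 0.000991) and rose in BALB/c mice (0.91 ± 0.16, adjusted p = 4.83e-05), a host difference of -1.56 ± 0.22, adjusted p = 3.93e-05. With offsets for GC content and length, the fall in NSG macro-mets over DTC was -0.08, adjusted p = 0.636.

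Secreted factors. Adm encodes adrenomedullin, a peptide that widens vessels, Vegfa the main growth factor of vessels, and Angptl4 an inhibitor of lipoprotein lipase. Adm measured 6.14, 3.29, 3.66, 3.49 and 3.56 CPM in NSG tumours, 1.39, 1.83, 1.31, 1.78 and 1.05 CPM in NSG DTC and 10.5, 12.6, 45.9, 34.9 and 11.0 CPM in NSG macro-mets. Adm in BALB/c mice stood at 16.5, 14.6, 15.9, 7.0 and 9.61 CPM in tumours, 2.93, 1.2, 1.23, 1.73 and 1.58 CPM in DTC and 49.3, 37.8, 18.7, 24.8 and 24.2 CPM in macro-mets. In each host the 3 stages did not overlap, and NSG tumours lay below BALB/c tumours. On the log2 scale Adm rose more than any other member in macro-mets over DTC, by 3.95 ± 0.40, adjusted p = 1e-08 in NSG and 4.16 ± 0.41, adjusted p = 9e-09 in BALB/c mice. It fell in DTC over tumours in NSG (-1.44 ± 0.38, adjusted p = 0.00538) and BALB/c mice (-2.87 ± 0.39, adjusted p = 1.26e-06).

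Vegfa did not share this order. Vegfa measured 133, 88.8, 121, 141 and 149 CPM in NSG tumours, 128, 137, 106, 158 and 128 CPM in NSG DTC and 93.8, 100, 127, 141 and 77.6 CPM in NSG macro-mets, with overlap between all 3. Vegfa in BALB/c mice stood at 85.4, 100, 87.1, 60.0 and 96.5 CPM in tumours, 132, 140, 128, 183 and 136 CPM in DTC and 158, 154, 147, 226 and 190 CPM in macro-mets. The BALB/c tumours were lowest, without overlap with either lung group. In DTC over tumours Vegfa stood at 0.05 ± 0.16, adjusted p = 0.847 in NSG mice and rose in BALB/c mice (0.74 ± 0.16, adjusted p = 0.000477). The host difference was -0.69 ± 0.23, adjusted p = 0.0187 for DTC over tumours and -1.26 ± 0.23, adjusted p = 0.00105 for macro-mets over tumours, of which the first is lost without NSG tumour replicate 5 or BALB/c DTC replicate 4. In macro-mets Vegfa was lower in NSG than in BALB/c mice (-0.70 ± 0.16, adjusted p = 0.0107), with no overlap. Angptl4 fell in NSG DTC over tumours (-1.69 ± 0.40) and stood at -0.77 ± 0.39 in BALB/c mice, with a host difference that did not pass (-0.92 ± 0.55, adjusted p = 0.209).

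Collagen modification. P4ha1 and P4ha2 are catalytic subunits of the hydroxylases that stabilise collagen, and Plod2 hydroxylates the lysines used for collagen crosslinks. P4ha1 measured 233, 202, 204, 207 and 196 CPM in NSG tumours, 56.6, 60.0, 69.7, 55.4 and 53.5 CPM in NSG DTC and 144, 179, 176, 262 and 159 CPM in NSG macro-mets. P4ha1 in BALB/c mice stood at 353, 197, 454, 172 and 192 CPM in tumours, 77.2, 74.0, 64.2, 67.8 and 79.7 CPM in DTC and 178, 209, 181, 257 and 182 CPM in macro-mets. DTC libraries of both hosts lay below all others. P4ha1 fell in DTC over tumours in NSG (-1.82 ± 0.20, adjusted p = 2.49e-07) and BALB/c mice (-1.91 ± 0.20, adjusted p = 7.97e-09), and the host difference was 0.09 ± 0.27, adjusted p = 0.827.

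P4ha2 measured 41.7, 33.2, 36.1, 37.3 and 31.4 CPM in NSG tumours, 12.4, 12.7, 9.95, 10.3 and 8.97 CPM in NSG DTC and 41.7, 53.1, 45.4, 114 and 48.5 CPM in NSG macro-mets. P4ha2 in BALB/c mice stood at 56.4, 35.4, 58.8, 27.9 and 40.1 CPM in tumours, 12.9, 13.1, 12.8, 10.1 and 15.5 CPM in DTC and 79.5, 80.4, 60.9, 76.2 and 57.0 CPM in macro-mets. The DTC groups were again lowest without overlap. P4ha2 rose in macro-mets over DTC in NSG (2.48 ± 0.22, adjusted p = 1.03e-09) and BALB/c mice (2.46 ± 0.22, adjusted p = 1.31e-09), with a host difference of 0.02 ± 0.30, adjusted p = 0.97.

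Plod2 measured 97.6, 77.7, 61.0, 65.2 and 77.9 CPM in NSG tumours, 67.2, 68.1, 75.7, 63.2 and 66.8 CPM in NSG DTC and 45.0, 58.2, 22.9, 65.8 and 68.4 CPM in NSG macro-mets. Plod2 in BALB/c mice stood at 66.7, 51.1, 82.2, 29.1 and 36.4 CPM in tumours, 25.7, 27.2, 24.4, 17.2 and 11.9 CPM in DTC and 35.2, 43.1, 69.8, 91.1 and 65.2 CPM in macro-mets. BALB/c DTC lay below all other libraries but NSG macro-met replicate 3, the library rich in muscle markers. In DTC over tumours Plod2 stood at -0.15 ± 0.28, adjusted p = 0.743 in NSG mice and fell in BALB/c mice (-1.32 ± 0.29, adjusted p = 0.000543), a host difference of 1.17 ± 0.40, adjusted p = 0.024 that is not called without BALB/c tumour replicate 3. In macro-mets over DTC it stood at -0.39 ± 0.28, adjusted p = 0.275 in NSG mice and rose in BALB/c mice (1.52 ± 0.29, adjusted p = 0.000178), a host difference of -1.91 ± 0.40, adjusted p = 0.000792.

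Growth and stress regulators. Ankrd37 is an ankyrin repeat protein, Ddit4 (REDD1) inhibits mTORC1, Mxi1 opposes MYC, and Ndrg1 is a stress-induced protein. Ankrd37 measured 9.18, 9.11, 6.01, 6.49 and 4.13 CPM in NSG tumours, 0.945, 1.19, 1.61, 1.19 and 1.11 CPM in NSG DTC and 5.49, 6.93, 7.38, 10.7 and 3.09 CPM in NSG macro-mets. Ankrd37 in BALB/c mice stood at 13.6, 7.78, 12.7, 7.37 and 8.48 CPM in tumours, 1.25, 1.2, 0.773, 1.36 and 1.31 CPM in DTC and 15.9, 13.3, 7.2, 10.5 and 9.8 CPM in macro-mets. All DTC libraries were at 1.61 CPM or below and all others at 3.09 CPM or above. Ankrd37 fell in DTC over tumours by more than any other member in NSG mice (-2.53 ± 0.29, adjusted p = 4.18e-07), and fell in BALB/c mice (-3.08 ± 0.29, adjusted p = 2.08e-09). Mxi1 fell in DTC over tumours in NSG (-0.63 ± 0.15) and BALB/c mice (-0.83 ± 0.16), and Ndrg1 did not pass (-0.65 ± 0.27 and -0.43 ± 0.27), while both rose in macro-mets over DTC in each host.

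Ddit4 measured 560, 454, 506, 655 and 715 CPM in NSG tumours, 429, 405, 140, 393 and 365 CPM in NSG DTC and 393, 367, 953, 457 and 355 CPM in NSG macro-mets. Ddit4 in BALB/c mice stood at 362, 430, 264, 296 and 367 CPM in tumours, 327, 366, 508, 592 and 682 CPM in DTC and 880, 900, 408, 419 and 396 CPM in macro-mets. NSG DTC lay below NSG tumours without overlap, with replicate 3 lowest by far, while the BALB/c groups overlapped. Neither fold change of DTC over tumours passed alone, at -0.74 ± 0.30, adjusted p = 0.0716 in NSG and 0.52 ± 0.30, adjusted p = 0.163 in BALB/c mice, but their difference did (-1.26 ± 0.43, adjusted p = 0.0221), except without NSG tumour replicate 5 or BALB/c DTC replicate 5.

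**Figure D4:**
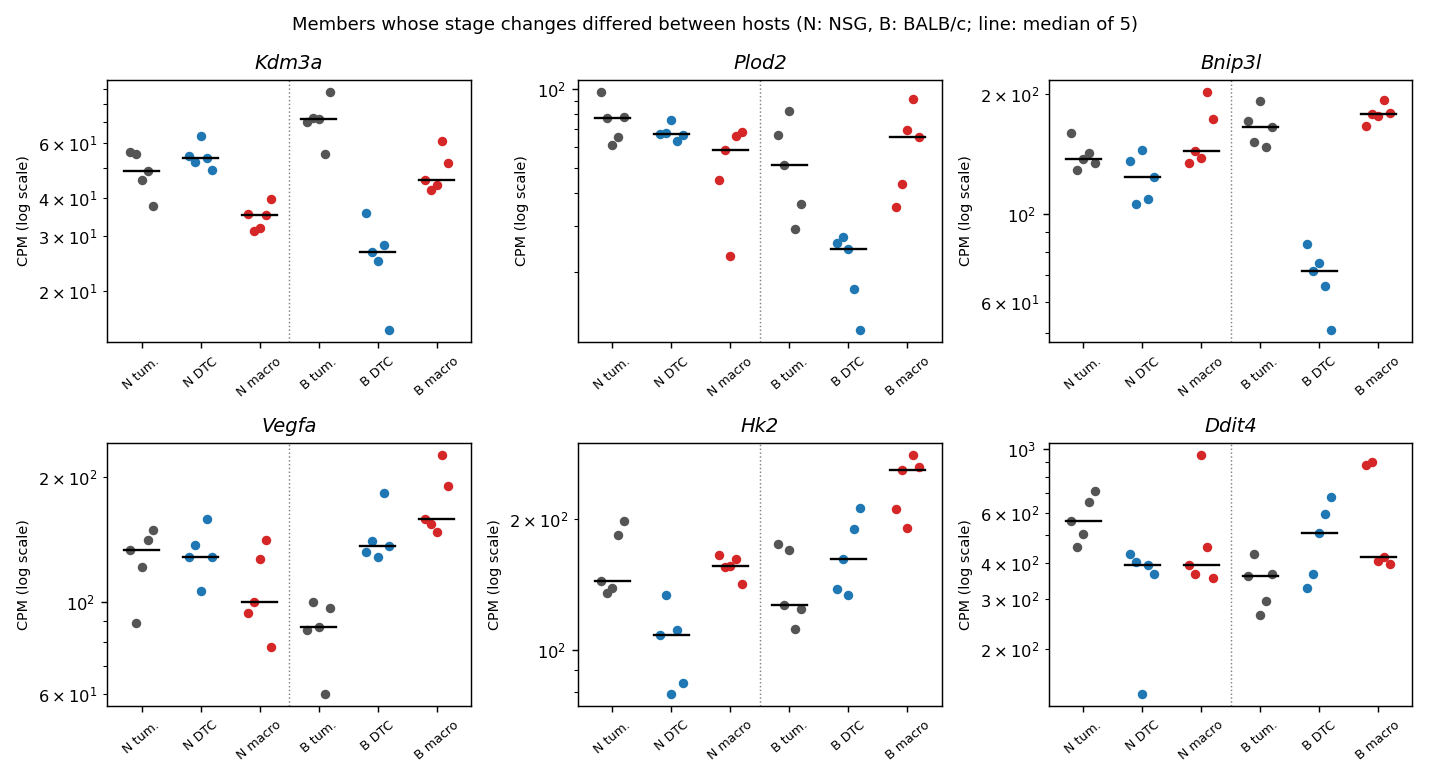
CPM on a log scale of 6 genes whose stage changes differed between hosts, with a panel for each gene and NSG groups left of BALB/c groups; points are libraries and lines are medians of 5. For Kdm3a the NSG DTC libraries lie between 49.1 and 63.3 CPM and the BALB/c DTC libraries between 14.9 and 35.8 CPM.

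Macro-mets against tumours. In NSG mice 8 enzymes (Hk1, Gpi1, Pfkp, Pfkm, Aldoc, Pgk1, Eno2 and Ldha) and 10 other HIF targets were higher in macro-mets than in tumours, where 16.9% of all genes tested were higher. Kdm3a alone was lower (-0.49 ± 0.16, adjusted p = 0.0178), where 13.6% of all genes were. On either TPM scale no member was called lower, and with GC and length offsets 2 other HIF targets were. The largest of these rises were those of Adm (2.51 ± 0.38, adjusted p = 1.25e-05), Eno2 (1.91 ± 0.35, adjusted p = 0.000186) and Bnip3 (1.55 ± 0.30, adjusted p = 0.00032). Much of this count rested on NSG macro-met replicate 4, without which 4 enzymes and 6 other HIF targets were called. Without NSG tumour replicate 5, 5 enzymes were called.

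In BALB/c mice 5 enzymes (Hk1, Hk2, Pfkp, Pfkm and Pgam1) and 9 other HIF targets were higher in macro-mets than in tumours, where 19.6% of all genes were higher. Kdm3a was again the only member lower (-0.55 ± 0.16, adjusted p = 0.0063), where 18.2% of all genes were. With GC and length offsets 1 enzyme and 2 other HIF targets were called lower. Adm (1.29 ± 0.36, adjusted p = 0.00593), Vegfa (1.03 ± 0.16, adjusted p = 1.6e-05) and Egln1 (0.88 ± 0.18, adjusted p = 0.000404) rose most. Without BALB/c tumour replicate 3, a library high in most members, 9 enzymes were called.

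NSG against BALB/c. In tumours, 3 enzymes (Aldoa, Aldoc and Eno2) and 5 other HIF targets (Egln3, Kdm3a, Adm, Bnip3 and Ak4) were lower in NSG than in BALB/c mice, where 11.0% of all genes tested were lower. Vegfa was the only member higher (0.56 ± 0.16, adjusted p = 0.0109), where 12.6% of all genes were. The medians were -0.19 for the enzymes and -0.36 for the other HIF targets, beside -0.079 for all genes. Adm (-1.66 ± 0.37, adjusted p = 0.00133), Aldoc (-1.31 ± 0.19, adjusted p = 5.86e-06) and Egln3 (-1.29 ± 0.18, adjusted p = 3.24e-06) differed most. NSG tumours were 10 days old and BALB/c tumours 21 or 22 days old, so host and age of the tumour cannot be told apart. Without BALB/c tumour replicate 4, 5 enzymes were called. The call of Ak4 is lost when any of 6 of 10 libraries is left out, and that of Aldoa when any of 3 of 10 is.

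In DTC, which were taken at day 7 in both hosts, 9 enzymes were lower in NSG than in BALB/c mice and none was higher, where 17.1% of all genes were lower. These were Hk2, Gpi1, Pfkl, Pfkp, Aldoc, Tpi1, Gapdh, Pkm and Ldha, led in size by Pfkl (-0.80 ± 0.20, adjusted p = 0.00151) and Hk2 (-0.69 ± 0.15, adjusted p = 0.000495). Gapdh averaged 1174 ± 92.4 CPM in NSG DTC and 1811 ± 149 CPM in BALB/c DTC (SD, n = 5), with no overlap. The enzyme median was -0.46, beside 0.007 for all genes. Among the other HIF targets, Bnip3l (0.83 ± 0.12, adjusted p = 3.07e-06), Kdm3a (1.06 ± 0.16, adjusted p = 4.07e-06) and Plod2 (1.68 ± 0.29, adjusted p = 3.39e-05) were higher in NSG DTC, where 21.7% of all genes were, and Egln3 and Slc16a3 were lower. With log2(TPM + 1) or log2(TPM + 0.1) in place of counts this split was 6 higher and 1 lower for the other HIF targets and 4 lower for the enzymes.

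Trends with base composition moved with this comparison. Across genes, GC content and a library's deviation from the average over the 30 libraries had a rank correlation between -0.594 and -0.311 in NSG DTC, and between -0.0947 and 0.442 in BALB/c DTC. The median GC content was 53.1% for the enzymes and 50.7% for the other HIF targets, against 49.7% for all genes tested, and it was 41.9% for Bnip3l, 43.0% for Plod2 and 45.5% for Kdm3a. With GC and length offsets, 5 enzymes were called between the hosts in DTC with an enzyme median of -0.22, Pkm turned to 0.04, adjusted p = 0.873, and Bnip3l stood at 0.14, adjusted p = 0.42. Under the same offsets Kdm3a (0.53, adjusted p = 0.000624) and Plod2 (1.07, adjusted p = 0.00201) were still called higher in NSG DTC.

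In macro-mets, Hk2 and Vegfa were called between the hosts, both lower in NSG mice, where 1.88% of all genes were lower and 0.76% were higher. The medians were 0.05 for the enzymes and -0.17 for the other HIF targets, beside 0.009 for all genes. For the other members this says only that no difference passed the test. Slc2a1, for instance, stood at -0.21 ± 0.24 and Adm at -0.43 ± 0.35, with a wide error. The call of Vegfa is lost without BALB/c macro-met replicate 4, and without NSG macro-met replicate 4 there were 3 calls among the other HIF targets.

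Whether a stage change differed between the hosts was tested as the NSG change minus the BALB/c change. For DTC over tumours 5 enzymes and 7 other HIF targets passed, where 33.4% of all genes tested passed in either direction, so the members were called about as often as other genes. The difference was positive, from a smaller fall or none called in NSG mice, for Aldoc, Eno2, Bnip3, Bnip3l, Kdm3a, Adm and Plod2. It was negative for Hk2, Pgam1, Pkm, Vegfa and Ddit4. The calls of Adm, Pgam1 and Pkm are lost when any of 12 of 20, 10 of 20 and 14 of 20 libraries is left out, and the enzyme count then runs from 2 to 8. The enzyme median was -0.31 and that of the other HIF targets 0.22, beside 0.055 for all genes. With GC and length offsets the enzyme median was -0.03, beside -0.095 for all genes, which is 0.06 relative to all genes, against -0.36 without offsets.

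Bnip3l, a receptor for the removal of mitochondria, measured 160, 129, 137, 142 and 134 CPM in NSG tumours, 136, 106, 145, 109 and 124 CPM in NSG DTC and 134, 144, 138, 203 and 173 CPM in NSG macro-mets. Bnip3l in BALB/c mice stood at 171, 152, 192, 147 and 165 CPM in tumours, 84.0, 71.8, 75.1, 65.9 and 50.8 CPM in DTC and 166, 178, 176, 193 and 179 CPM in macro-mets. BALB/c DTC lay below all other libraries, while NSG DTC overlapped NSG tumours. The host difference was 1.07 ± 0.17, adjusted p = 2e-05 for DTC over tumours, and with GC and length offsets it was 0.04, adjusted p = 0.889. Under these offsets the host difference of Plod2 was 0.31, adjusted p = 0.575 and that of Kdm3a 0.96, adjusted p = 4.12e-05, so of these 3 genes Kdm3a alone was called either way. Of the 5 enzymes that fell in NSG DTC and were not called in BALB/c DTC (Hk2, Pfkm, Gapdh, Pgam1 and Ldha), the host difference passed for Hk2 and Pgam1.

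For macro-mets over DTC, 4 enzymes (Tpi1, Gapdh, Pkm and Ldha) rose more in NSG mice, where 11.6% of all genes had a positive difference called. Kdm3a, Bnip3l and Plod2 had a negative one, where 16.6% of all genes did and 28.1% were called in either direction. No enzyme was called in this comparison on either TPM scale, nor without the 2 libraries rich in muscle markers, nor when any of NSG macro-met replicates 3 and 4, BALB/c DTC replicates 3, 4 and 5 or BALB/c macro-met replicates 3 and 5 was left out. Without NSG macro-met replicate 4, 8 other HIF targets were called. For macro-mets over tumours, Aldoc (1.08 ± 0.26, adjusted p = 0.0132) had a positive difference, and Hk2 (-0.80 ± 0.22, adjusted p = 0.0246) and Vegfa (-1.26 ± 0.23, adjusted p = 0.00105) negative ones. Of all genes tested 1.7% had a positive difference called, 3.53% a negative one and 5.23% either. The call of Hk2 is lost without NSG tumour replicates 4 or 5 or BALB/c macro-met replicate 4.

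**Figure D5:**
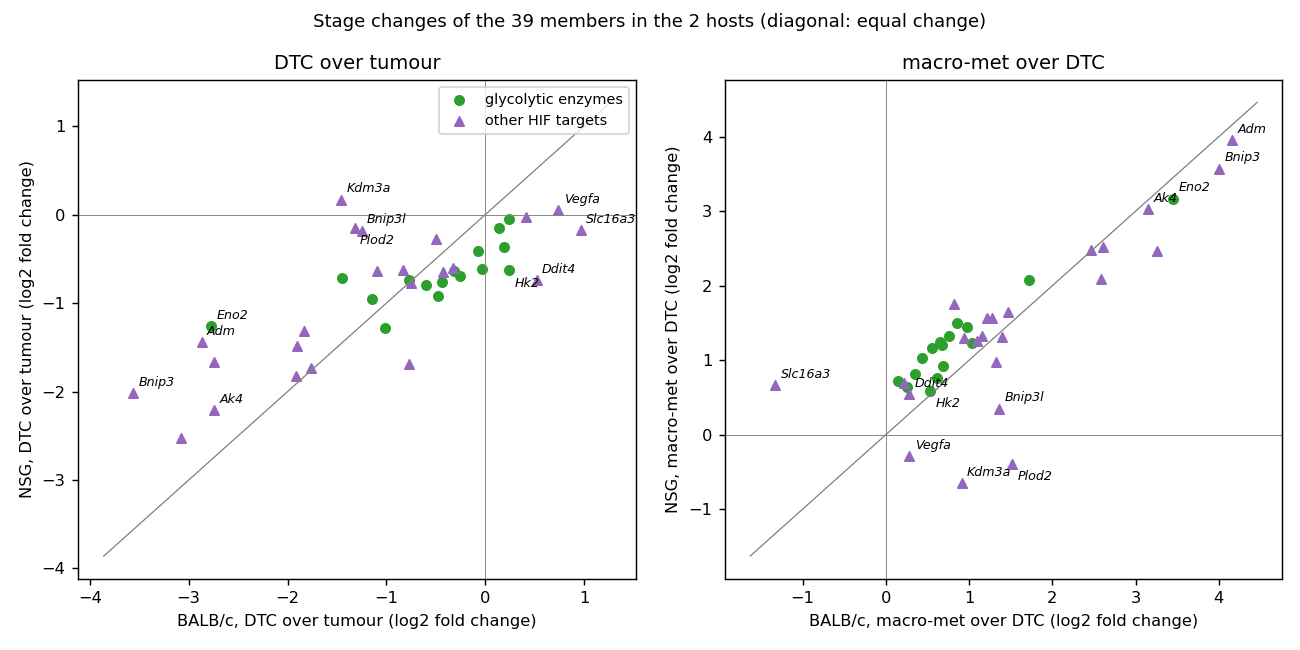
Log2 fold change of each of the 39 genes in NSG mice (vertical) against BALB/c mice (horizontal), for DTC over tumour (left) and macro-met over DTC (right); circles are glycolytic enzymes, triangles other HIF targets, and the diagonal marks equal change. Kdm3a, Bnip3l and Plod2 lie above the diagonal on the left and below it on the right; Bnip3 lies at -2.02 in NSG and -3.56 in BALB/c mice on the left.

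The regulators of HIF itself. Of 17 genes of the HIF machinery 16 were tested. In NSG DTC over tumours 5 rose and 2 fell, where 16.0% of all genes rose and 9.55% fell, and in BALB/c DTC over tumours 4 rose and 5 fell, where 20.4% rose and 21.0% fell. The BALB/c counts are near those shares. Hif1a, the oxygen-regulated subunit, which is controlled mainly at the protein level, averaged 92.7 ± 15.0 CPM in NSG tumours, 156 ± 28.6 CPM in NSG DTC and 74.5 ± 21.6 CPM in NSG macro-mets (SD, n = 5). In BALB/c mice Hif1a averaged 94.4 ± 13.3 CPM in tumours, 50.4 ± 22.4 CPM in DTC and 70.6 ± 28.2 CPM in macro-mets. Hif1a transcripts thus rose in NSG DTC over tumours (0.75 ± 0.28, adjusted p = 0.0489) and fell in BALB/c DTC over tumours (-0.91 ± 0.28, adjusted p = 0.0112), a host difference of 1.66 ± 0.40, adjusted p = 0.00186. The NSG call lies close to the threshold of 0.05. Whether the Hif1a calls hold with GC and length offsets, or with single libraries left out, is not given here. Cited2, a HIF-induced protein that competes with HIF for its coactivators, fell in DTC over tumours in NSG (-1.16 ± 0.14, adjusted p = 1.2e-06) and BALB/c mice (-0.66 ± 0.14, adjusted p = 0.000395). Epas1, which encodes the second oxygen-regulated subunit and is abundant in endothelium, rose in BALB/c DTC (3.87 ± 0.93, adjusted p = 0.00156), the group with the most endothelial marker transcripts in its replicates 1 and 2, and the part of those markers in the result was not tested.

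Of 36 further genes known to be induced by hypoxia 35 were tested. In DTC over tumours 5 rose and 7 fell in NSG mice, with a median of -0.16, where 16.0% of all genes rose and 9.55% fell. In BALB/c mice 4 rose and 14 fell, with a median of -0.66, where 20.4% rose and 21.0% fell, so the rises were no more frequent than among all genes in either host. In macro-mets over DTC 16 rose in each host, where 21.3% of all genes rose in NSG and 16.6% in BALB/c mice, and 6 fell in NSG and 3 in BALB/c mice, where 22.4% and 14.2% did. Car12, another carbonic anhydrase at the cell surface, fell in NSG DTC over tumours (-1.29 ± 0.19, adjusted p = 1.21e-05) and rose in BALB/c macro-mets over DTC (1.85 ± 0.19, adjusted p = 1.45e-08). Stc1, the secreted protein stanniocalcin, went the other way and rose in BALB/c DTC over tumours (2.03 ± 0.25, adjusted p = 3.6e-07). Narf (-1.22 ± 0.12, adjusted p = 4.12e-09) and the histone demethylase Kdm5b (-1.37 ± 0.16, adjusted p = 5.85e-08) fell in the same comparison. Tfrc, the transferrin receptor, fell in NSG macro-mets over DTC (-3.02 ± 0.34, adjusted p = 6.04e-08).

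Of 16 TCA cycle genes, which oxidise the carbon that leaves glycolysis, 3 rose and none fell in NSG DTC over tumours, with a median of -0.09, where 16.0% of all genes rose, a share near theirs. In BALB/c DTC over tumours 12 rose and none fell, with a median of 0.48, where 20.4% of all genes rose. Among them Ogdh (0.91 ± 0.13, adjusted p = 1.28e-06), Mdh2 (0.64 ± 0.09, adjusted p = 1.86e-06) and Fh1 (0.63 ± 0.09, adjusted p = 2.07e-06) had the smallest adjusted p in BALB/c mice. The host difference was negative and called for 11 of the 16, where 15.0% of all genes had a negative one called, and positive for 1, where 18.4% did. Of 7 genes of the pentose phosphate pathway, which turns glucose phosphate into NADPH and ribose, 1 fell in NSG DTC (Tkt, -0.31 ± 0.10, adjusted p = 0.0188), where 9.55% of all genes fell, and 5 rose in BALB/c DTC, where 20.4% rose, led by G6pdx (0.67 ± 0.08, adjusted p = 2.68e-07). The host difference was negative and called for 6 of these 7. Trends with GC content also differed between DTC of the hosts. Their part in the host differences of both pathways was not tested.

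The list of pyruvate entry holds 14 genes of pyruvate transport, of its conversion in mitochondria and of the control of that step. Of these 14, 2 rose and 1 fell in NSG DTC over tumours, and 4 rose and 3 fell in BALB/c DTC. This is close to the 16.0% and 9.55% of all genes in NSG and the 20.4% and 21.0% in BALB/c mice. Pdk2, a relative of Pdk1, rose in macro-mets over DTC in NSG (1.09 ± 0.17, adjusted p = 3.96e-06) and BALB/c mice (0.83 ± 0.17, adjusted p = 0.000333). Other glycolytic isozymes that were not on the list of 16 were tested in 11 of 17 cases, and 2 rose and 2 fell in NSG DTC and 3 rose and 2 fell in BALB/c DTC, again close to those shares. Pfkfb2, the PFK-2 form of heart and kidney, rose in NSG DTC over tumours (0.86 ± 0.21, adjusted p = 0.00261) and fell in BALB/c DTC over tumours (-0.79 ± 0.21, adjusted p = 0.0031), a host difference of 1.65 ± 0.29, adjusted p = 7.74e-05. The part of GC content in this difference was not tested.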

How the data were processed

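Both kinds of value were deposited by the authors, as a table of whole-number counts per gene and a table of TPM, each with 1 column for each of 30 libraries. Per the submitters' processing notes, Trimmomatic 0.36, STAR 2.5.2b and the mouse assembly GRCm38 (mm10) were used; the strand setting, the program that counted reads and the gene lengths behind the deposited TPM are not given in the sources used here. Libraries were grouped by labelled host and stage. The filter filterByExpr, applied by group, kept 17774 genes that hold 99.969% of counts. These were scaled by TMM and fitted across every library with edgeR 4.0.16 (R 4.3.3), by its robust quasi-likelihood test with 24 residual degrees of freedom. P-values were adjusted by Benjamini-Hochberg over all genes tested, with a call under 0.05. CPM are TMM-scaled, and TPM serve to compare genes. The fit was tried on simulated counts with few changed genes, equal dispersion for all genes and no trend with GC content. That trial does not show how the fit behaves under such trends. Depth was 29832098 counts or more in each library, so the spread between libraries sets the precision.

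The members and lists were chosen with earlier results of these data known. Values of each library are printed for the members with the smallest adjusted p of their role in BALB/c DTC over tumours or in NSG macro-mets over DTC, for up to 3 members per host difference, and for members called against most of their list, which gave 19 genes. Bnip3, the means of Ldha and Gapdh, the stage changes of Hif1a and the level of Slc16a1 were added after their values were seen. From each further list at most 3 genes per comparison are named, by smallest adjusted p. Alternatives were DESeq2 1.42.0, limma 3.58.1 (voom, and log2 TPM with a pseudocount of 1 or 0.1), RLE size factors, no filter on low counts, offsets for GC content and length from GENCODE M21, a lung marker covariate, fits of the compared libraries alone and each library left out. Leaving out the 2 libraries rich in lung markers, or the 2 richest in muscle markers, was chosen after seeing the data; NSG tumour replicates 2 and 3, next in muscle markers, stayed in.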

Additional observations from a re-analysis of the deposited data

Results flagged for a closer look

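In 114 sets of 5 libraries, 19 genes in 6 groups, 11 held a library whose gap to its nearest neighbour exceeded 0.71 of the range of its group, where chance gives about 1 in 20. NSG macro-met replicate 4 stood high in 3 of them, with 402 CPM of Slc2a1, 353 CPM of Egln3 and 114 CPM of P4ha2. NSG DTC replicate 3 stood low with 6.18 CPM of Pfkfb4 and 140 CPM of Ddit4. NSG macro-met replicate 3 stood high with 953 CPM of Ddit4, and NSG tumour replicate 1 with 6.14 CPM of Adm. In BALB/c mice, tumour replicate 5 stood high with 77.5 CPM of Pfkfb3 and DTC replicate 4 with 183 CPM of Vegfa, while DTC replicate 1 stood low with 25.5 CPM of Aldoc and DTC replicate 3 with 0.773 CPM of Ankrd37.

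The stage changes that differed between the hosts were also singled out, each as the NSG change minus the BALB/c change in edgeR's interaction test. For DTC over tumours 5 enzymes and 7 other HIF targets were called, with the smallest adjusted p for Kdm3a at 1.62, Bnip3l at 1.07 and Hk2 at -0.87 on the log2 scale. For macro-mets over DTC 4 enzymes and 3 other HIF targets were called, those 3 being Kdm3a at -1.56, Bnip3l at -1.01 and Plod2 at -1.91. For macro-mets over tumours 2 enzymes and 1 other HIF target were called, which were Vegfa at -1.26, Aldoc at 1.08 and Hk2 at -0.80.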

How the results depend on the processing

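Counts are of enzymes unless other HIF targets are named, and the cause of each shift was not tested. The falls in DTC and rises in macro-mets over DTC stayed within 1.5 times of the reported counts under all alternatives but the lung marker covariate, which gave 2 enzymes and 8 other HIF targets lower in NSG DTC, 2 enzymes lower in BALB/c DTC and 8 enzymes higher in BALB/c macro-mets over DTC. Macro-mets over tumours gave 13 in NSG mice and 11 in BALB/c mice on both TPM scales, and in NSG mice 3 with GC and length offsets and 13 with the lung covariate. Between hosts, tumours gave 5 with GC offsets or without the muscle-rich libraries. DTC gave 4 on both TPM scales and 5 with GC offsets, and 10 other HIF targets in a fit of those libraries alone. In macro-mets, other HIF targets called numbered 3 with DESeq2 or voom and 2 with GC offsets, the lung covariate, those libraries alone or without the lung-rich libraries. The host difference of DTC over tumours gave 3 with voom, on both TPM scales or without the muscle-rich libraries, and 4 other HIF targets with GC offsets. That of macro-mets over DTC gave 0 on both TPM scales or without the muscle-rich libraries, 1 with GC offsets and 7 with the lung covariate, and 7 other HIF targets on both TPM scales. That of macro-mets over tumours gave 1 as log2(TPM + 0.1) or without the muscle-rich libraries, and 3 (DESeq2) or 2 (without the muscle-rich libraries) other HIF targets. Directions turned for Slc2a1 (0.01) and Slc16a3 (-2.88) in BALB/c DTC over tumours with the lung covariate, and for Pkm (0.04) between DTC of the hosts with GC offsets.

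Leaving out each library in turn gave, for enzymes and other HIF targets, 13 to 14 and 14 to 15 in NSG DTC over tumours, 16 (in every case) and 17 to 18 in NSG macro-mets over DTC, and 4 to 10 and 6 to 11 in NSG macro-mets over tumours. In BALB/c mice the ranges were 7 to 10 and 14 to 17, 12 to 15 and 18 (in every case), and 4 to 9 and 6 to 9, in the same order. Between hosts they were 2 to 5 and 5 to 8 in tumours, 8 to 10 and 4 to 6 in DTC, and 0 to 1 and 0 to 3 in macro-mets. Host differences gave 2 to 8 and 4 to 9 for DTC over tumours, 0 to 5 and 3 to 8 for macro-mets over DTC, and 1 to 2 and 1 to 2 for macro-mets over tumours. In the first of these, enzymes numbered 8 without BALB/c tumour replicate 3, 2 without BALB/c tumour replicates 2 or 5 or NSG tumour replicate 2, and 3 without NSG tumour replicates 1, 4 or 5, BALB/c DTC replicates 2, 3 or 5 or BALB/c tumour replicate 4; other HIF targets numbered 4 without NSG tumour replicate 5. For macro-mets over DTC, enzymes numbered 0 without NSG macro-met replicates 3 or 4, BALB/c DTC replicates 3, 4 or 5 or BALB/c macro-met replicates 3 or 5, 1 without NSG DTC replicates 2 or 3 or BALB/c macro-met replicates 1 or 4, and 2 without BALB/c DTC replicate 2 or BALB/c macro-met replicate 2, while other HIF targets numbered 8 without NSG macro-met replicate 4. For macro-mets over tumours, enzymes numbered 1 without NSG tumour replicates 4 or 5 or BALB/c macro-met replicate 4, and other HIF targets 2 without NSG macro-met replicate 3 or BALB/c tumour replicates 3 or 4.

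As log2(TPM + 0.1), the median of all genes moved by 0.222 in NSG DTC over tumours and by 0.251 between DTC of the hosts; relative to it, the enzyme medians were -0.76 and -0.48, against -0.76 and -0.47 from counts. With GC and length offsets the enzyme median between DTC of the hosts was -0.22, against -0.46, and that of the host difference of DTC over tumours was 0.06 relative to all genes, against -0.36. No paired analysis was possible because the labels give no replicate numbers shared between groups. Depth limits Slc16a3, at 5.66 CPM or less in every library.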
